A study of Rattus norvegicus with 6 samples.

Results

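The array used here carries 481 probes named for the plus strand of an ultraconserved element, and all 481 are described. They were taken by probe name (uc., a number, a plus sign) from 38321 non-control probes, and the minus-strand names give another 481. The names run from uc.1 to uc.483, without uc.11 and uc.32. Each probe was printed in 3 spots. The sources used here do not say which genomic strand the plus sign stands for, and the sequences and positions of the elements were not analysed here.

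Ultraconserved elements are stretches of genome with identical sequence in human, mouse and rat. Some lie in exons of genes for RNA-binding proteins and splicing regulators, and many others lie in introns or between genes near regulators of development, where they can act as enhancers. A part of them is transcribed, from either strand, and such transcripts have been studied mostly in tumours, with a smaller body of work on the heart and on nerve ganglia.

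Total RNA came from carotid arteries of adult male Sprague-Dawley rats of 250 to 300 g, on 3 arrays labelled sham and 3 arrays of arteries taken 14 days after injury of the right common carotid artery with a 2F Fogarty balloon catheter. The protocol text, which is the same for all 6 samples, has the rats anaesthetised with phenobarbital sodium at 50 mg/kg. The labels also call the control arteries normal or uninjured, so it is not settled whether these rats were operated on. Whether each artery is a separate rat is not stated, so the p-values measure only the spread between these samples, which may be technical. The comparison asks which transcripts differ between injured and sham arteries. The makeup of the arteries could not be checked, since 0 of 23 marker genes of smooth muscle and other cell types had a probe that could be named. In bulk RNA, fewer cells of a type and less RNA per cell cannot be told apart.

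Some arrays stood apart from their label. Across the 72 elements well above background on all 6 arrays, injured 1 correlated with sham 1 at Pearson r = 0.963 (Spearman rho = 0.903), but with injured 2 and injured 3 at r = 0.478 and 0.529. Sham 3 was closer to injured 2 (r = 0.787) and injured 3 (r = 0.843) than to sham 1 (r = 0.675). With sham 2, however, sham 3 correlated at r = 0.839, so it was not apart from its whole group. These are correlations across elements, which are not independent replicates. Results are therefore given also without both sham 3 and injured 1, a setting chosen with earlier results of these data known, which leaves 2 arrays per group. The slides are uneven too. They were inferred from scan times, so arrays with the same scan time count as 1 slide here. By this count slide 1 held sham 1 and the 3 injured arrays, and sham 2 and sham 3 each came from another slide.

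Most plus-strand elements gave little or no signal. A probe counts as detected on an array where over 50% of its usable spots carry the scanner software's flag for well above background. Of the 481 elements, 248 (51.6%) were detected on no array, 161 on 1 to 5 arrays and 72 (15.0%) on all 6. Of all non-control probes, 21.1% were detected on none and 42.8% on all 6. The minus-strand probes were close to the plus-strand ones in these counts, with 238 of 481 detected on none and 82 on all 6, and that difference was not tested.

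Detection followed single arrays more than groups. Sham 1, 2 and 3 detected 104, 138 and 125 plus-strand elements, and injured 1, 2 and 3 detected 99, 213 and 199. Injured 2 and injured 3 were high and injured 1 was the lowest of the 6, so the groups overlapped. All non-control probes gave a narrower spread, from 51.5% on sham 3 to 69.8% on injured 2, against 20.6% on injured 1 to 44.3% on injured 2 for the plus-strand elements. Sham 3 was also the dimmest array, with a 75th percentile intensity of 89.5 units against 214 to 284 on the others. The part of brightness in these counts was not tested.

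**Figure D1:**
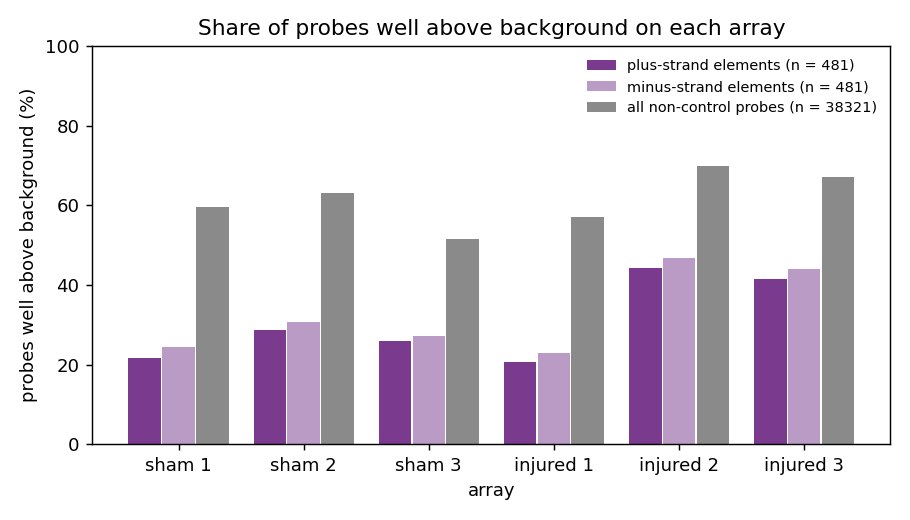
Bars give the share of probes (%) well above background on each of the 6 arrays, for the 481 plus-strand elements, the 481 minus-strand elements and all 38321 non-control probes. Plus-strand shares run from 21.6% to 28.7% for sham, and are 20.6%, 44.3% and 41.4% for injured 1, 2 and 3; all-probe shares are higher on every array.

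The 161 elements detected on some arrays fell into 25 combinations of arrays. Of these, 54 were detected on injured 2 and injured 3 only (11.2% of the plus-strand elements, 11.4% of the minus-strand ones and 7.6% of all probes). Another 28 were detected on sham 2, sham 3, injured 2 and injured 3 (5.8%, against 2.8% of all probes). Those on injured 2 only were 15 (3.1% against 2.4%), and those on sham 3, injured 2 and injured 3 were 14 (2.9% against 1.5%). Another 11 were detected on every array but sham 3 (2.3% against 5.4%). In the other direction, 6 elements were detected on sham 1, sham 2 and injured 1 only (1.2% against 3.5%). No element was detected on all arrays of 1 group and on none of the other, against 148 of all probes for injured (0.386%) and 23 for sham (0.06%). In these combinations injured 1 went with sham 1, and sham 3 often went with injured 2 and injured 3.

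Levels are given as log2 of the processed intensity minus the 75th percentile of that array over all non-control probes, so 0 is the 75th percentile and 1 unit is a 2-fold difference. Probes differ in how well they bind, so levels are compared between arrays and not between elements. The faintest level that still counted as detected ranged from -5.00 on sham 2 to -3.10 on sham 3, with the injured arrays between -4.49 and -4.05. The limit of sham 3 was thus the highest of the 6.

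Testing was limited to probes detected on 3 or more arrays, counted over both groups together, and 152 of the 481 elements met this. In limma 0 of these 152 passed at a Benjamini-Hochberg adjusted p under 0.05, and 0% of all 24680 tested probes passed. The lowest adjusted p among the elements was 0.598. At an unadjusted p under 0.05 there were 6 of 152 elements, against 4.44% of all tested probes. The 3 spots of a probe agreed far better than the arrays of a group: for the 72 elements detected on every array the median SD over spots was 0.10 to 0.16 on each array, while the median SD over arrays was 0.85 in sham and 1.08 in injured arteries. Without both sham 3 and injured 1, 122 of 152 elements passed (102 higher and 20 lower in injured arteries), but so did 73.6% of all probes. With limma's array weights, which came to 0.139 for sham 3 and 0.0586 for injured 1 and to 1.46 or more for the others, 131 passed beside 81.9% of all probes. These weights are low for arrays far from their group's mean, so this setting, like leaving out both arrays, narrows the spread within groups. With the replicate number as a block 0 elements passed, beside 0.0122% of all probes.

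Mean differences of the tested elements were mostly positive, meaning higher in injured arteries. Of the 152, 117 were positive (77.0%) and 35 negative, with a median of 0.75 and a range of -2.27 to 3.90, against 52.3% positive and a median of 0.10 over all tested probes. A difference of at least 1, in either direction, was found for 70 of the 152, a share close to the 45.8% of all probes. The minus-strand elements had 125 of 159 positive and a median of 0.81. Of the 72 elements detected on every array 52 were positive, where the share over all such probes was 47.8%. Over all 481 elements, with no filter, 351 were positive, against 56.7% of all probes. However, 248 of them were detected on no array (51.6%, against 21.1% of all probes), so those signs come from values below detection. Of the 233 detected on at least 1 array, 192 were positive, against 57.9%. That filter admitted 74 elements detected on injured arrays only and 6 detected on sham arrays only. These were 15.4% and 1.2% of the elements, against 11.9% and 2.4% of all probes. Neither count is further support for the positive signs. Scaling moved the differences of the elements and of all probes together. With median scaling the medians were 0.48 for the elements and -0.17 for all probes, and with no scaling 1.03 and 0.38. Normexp background correction gave 0.19 and -0.06. As used here it adds an offset of 50 intensity units before the log, which by itself narrows log2 differences of faint probes. The part of this offset in the normexp values given below was not tested.

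The positive balance was that of injured 2 and injured 3 and not of injured 1. Of the 72 elements detected on every array, injured 2 lay above every sham array for 45 and below every sham array for 11, where 36.6% and 45.2% of all such probes did. Injured 3 lay above for 45 and below for 13, against 36.9% and 43% of all such probes. Injured 1 lay above for 6 and below for 15, against 28.2% and 17.1%, and within the sham range for 51. Its median difference from the sham mean was -0.30, where injured 2 and injured 3 had 1.18 and 1.14. Injured 1 and sham 1 were within 1 log2 unit of each other for 68 of the 72 elements, sham 1 and sham 3 for 22, and injured 2 and injured 3 for 68.

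**Figure D2:**
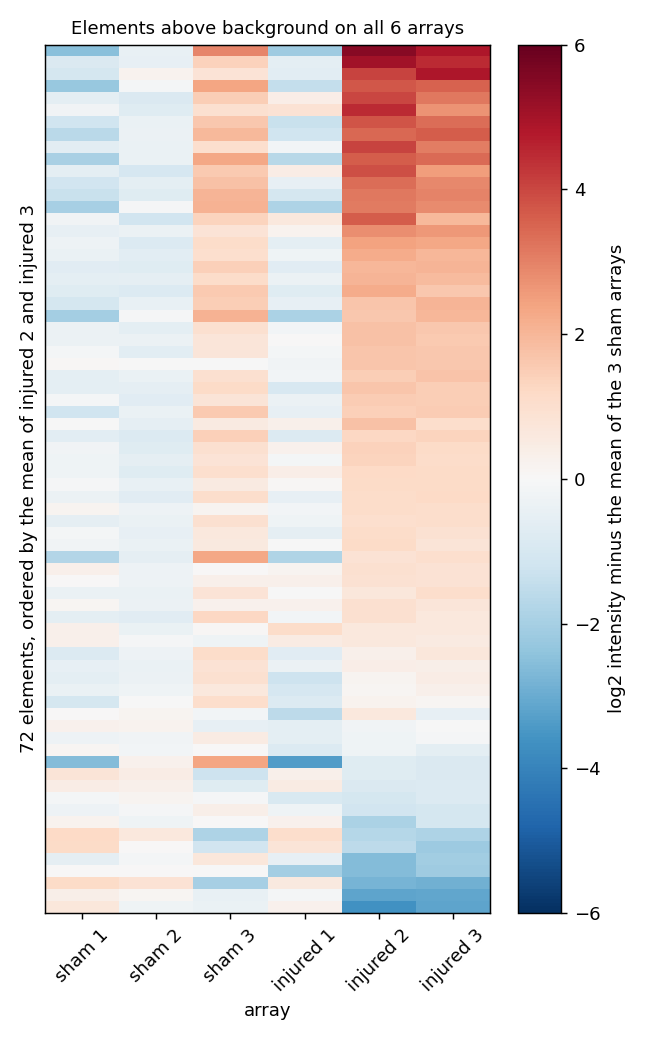
Each row is 1 of the 72 plus-strand elements detected on all 6 arrays and each column an array; colour is the log2 intensity minus the element's mean over the 3 sham arrays, from -3.63 to 5.46, with rows ordered by the mean of injured 2 and injured 3. Most rows are red on injured 2 and injured 3, sham 3 often shares that sign, and injured 1 resembles sham 1.

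The clearest separation of the groups was that of uc.226+, the element with the lowest p. Its sham values lay close together, at -1.37, -1.38 and -1.41, and its injured values were -3.44, -3.97 and -3.54, each detected. The lowest sham value was 2.04 log2 units above the highest injured value, and the SD over spots was at most 0.21 on any array. The difference was -2.27 ± 0.43 (SE; 95% interval -3.31 to -1.22), with a limma adjusted p of 0.598, so it misses the threshold. The arrays that stand apart moved it little: it was -2.38 without both of them and -2.28 against sham 1 alone within slide 1. With normexp background correction it was -0.94.

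Injured values lay wholly above sham values for 9 of 151 tested elements measured on every array and wholly below for 3, against 6.44% and 5.31% of all probes, or 11.8% in all. The counts varied with the array left out, although leaving an array out can only keep or raise them. Without sham 1 25 elements were separated, without sham 3 48, without injured 1 102, and without both sham 3 and injured 1 137. Of all probes 18.1%, 39.1%, 69.3% and 89.5% were. Leaving out sham 2, injured 2 or injured 3 gave 13, 13 and 12 elements. Without injured 1, 58 of 152 elements had an unadjusted limma p under 0.05, against 44.5% of all probes. With normexp background correction 3 were separated, all lower in injured arteries (9.42% of all probes), and with no scaling 25 were (10.6%). With no filter 20 of 477 elements were separated (10.1% of all probes), and of the 72 detected on every array 7 were (12.5%). The split of higher and lower depended on the scaling: it was 9 to 3 here, 6 to 6 with median scaling, 6 to 5 with quantile normalization, 5 to 5 in the authors' values and 24 to 1 with no scaling.

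Besides uc.226+, the lower elements were uc.33+ and uc.409+. The sham values of uc.33+ were -2.10, -1.79 and -2.02 and its injured values -2.89, -3.04 and -2.80, a gap of 0.70 log2 units. Its difference was -0.94 ± 0.42 (SE; limma adjusted p = 0.598), and injured 1 lay with injured 2 and injured 3. Those of uc.409+ were -1.60, -1.88 and -1.70 in sham arteries, against -2.56, -2.0 and -2.33 in injured ones, a difference of -0.57 ± 0.43 (SE). Both elements were detected on all 6 arrays, and with normexp background correction their differences were -0.46 and -0.37.

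Of the 9 higher elements, uc.256+ had the lowest p. It measured -4.08, -4.73 and -3.43 in sham arteries, where only sham 1 detected it, and -3.02, -2.31 and -2.72 in injured arteries, where all 3 arrays did. Its difference was 1.39 ± 0.53 (SE; limma adjusted p = 0.598), and it was 0.25 with normexp background correction. uc.85+ measured -4.23, -4.91 and -4.21 in sham arteries, against -4.18, -2.13 and -2.48 in injured ones. Only sham 1, injured 2 and injured 3 detected uc.85+, and its groups were 0.03 log2 units apart, with injured 1 beside sham 1 and sham 3. Its difference was 1.52 ± 0.68 (SE), and 0.26 with normexp background correction.

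The other 7 higher elements had smaller differences, of 0.56 to 0.79. They include uc.16+ (0.69), uc.136+ (0.56), uc.159+ (0.69), uc.238+ (0.66), uc.293+ (0.63) and uc.344+ (0.79), of which uc.16+, uc.159+, uc.293+ and uc.344+ were named after their values were seen, with SEs of 0.43 to 0.47 and gaps of 0.01 to 0.32 log2 units. With normexp background correction these 6 differences were smaller, from 0.08 for uc.293+ to 0.32 for uc.16+, and the groups then overlapped for each of the 7. Of the 9 higher elements only 4 were detected on all 6 arrays. uc.159+, uc.293+ and the element of the 7 not named here were each detected on only 2 of the 3 sham arrays. For uc.159+ the highest sham value, -3.22 on sham 3, was itself below detection. uc.344+ measured -2.24, -2.93 and -2.46 in sham arteries, against -1.43, -1.91 and -1.92 in injured ones, all detected. Its highest value was on injured 1.

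**Figure D3:**
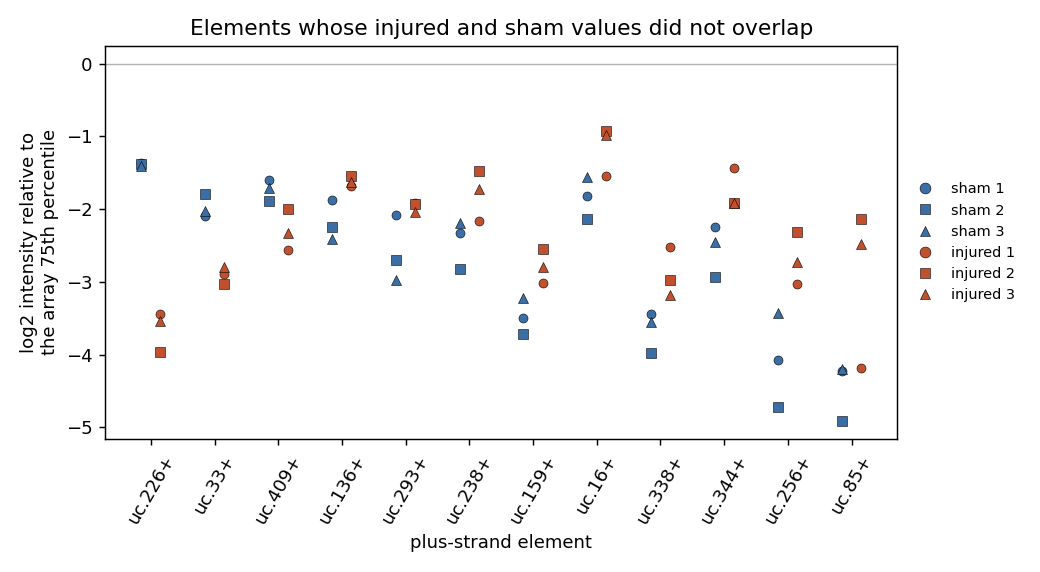
Points are log2 intensities relative to the array's 75th percentile (y axis) on each array for the 12 plus-strand elements (x axis, ordered by difference) whose sham (blue) and injured (orange) values do not overlap; marker shape gives the replicate. uc.226+ has a gap of 2.04 log2 units and the others gaps of 0.01 to 0.70.

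The other elements among the 10 with the lowest p had overlapping groups. uc.464+ measured -3.16, -3.66 and -1.99 in sham arteries, against -2.06, 1.56 and -0.25 in injured ones, a difference of 2.69 ± 1.01 (SE). uc.220+ measured -3.49, -3.80 and -1.44 in sham arteries, against -2.52, 1.1 and 0.26 in injured ones, a difference of 2.52 ± 1.13 (SE). In both, sham 3 was the highest sham array and injured 1 the lowest injured array, and each probe was detected on all 6. uc.195+ measured -3.92, -4.33 and -3.10 in sham arteries, against -3.22, -1.38 and -1.50 in injured ones, a difference of 1.75 ± 0.69 (SE). Sham 3 did not detect it, although its value there exceeded that of injured 1. With normexp background correction the differences were 1.53 for uc.464+, 1.38 for uc.220+ and 0.58 for uc.195+. uc.266+ departed from this order, at -1.79, -3.17 and -4.20 in sham arteries, against -1.91, -0.41 and -0.77 in injured ones. Sham 3 was its lowest array and did not detect it, and sham 1 was above injured 1. Its difference of 2.02 ± 0.78 (SE) was 0.76 against sham 1 alone within slide 1 and 0.78 with normexp.

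2 bright probes made up the rest of these 10, with means lower in injured arteries. uc.471+ measured 4.90, 5.31 and 6.10 in sham arteries, against 4.94, 2.82 and 3.37 in injured ones, a difference of -1.73 ± 0.71 (SE; limma adjusted p = 0.598). uc.481+ measured 3.42, 3.18 and 2.61 in sham arteries, against 2.96, -0.09 and -0.03 in injured ones, a difference of -2.12 ± 0.93 (SE). For both, injured 2 and injured 3 were the low arrays and injured 1 was close to sham 1. uc.480+, named after its values were seen, was also lowest on injured 2 and injured 3. It measured 1.49, 0.56 and 0.41 in sham arteries, against 1.06, -2.81 and -2.33 in injured ones. Without both sham 3 and injured 1 the differences were -2.01 for uc.471+ and -3.36 for uc.481+.

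The remaining bright probes went both ways. uc.154+ measured 4.56, 4.79 and 5.20 in sham arteries, against 4.61, 3.71 and 3.78 in injured ones, a difference of -0.82 ± 0.49 (SE). The probe of an element whose transcript has been studied in the lining of the gut measured 4.03, 3.57 and 3.82 in sham arteries, against 4.04, 1.91 and 2.73 in injured ones, a difference of -0.91 ± 0.65 (SE). uc.86+ measured 2.75, 2.39 and 3.39 in sham arteries, against 2.90, 4.01 and 4.01 in injured ones, a difference of 0.80 ± 0.56 (SE). In each case injured 2 and injured 3 lay outside the sham range on the same side and injured 1 lay inside it or beside sham 1. The wider swings belonged to uc.473+, uc.432+ and uc.102+. uc.473+ measured 0.81, 2.96 and 5.46 in sham arteries, against 1.67, 6.81 and 6.61 in injured ones, a difference of 1.95 ± 1.77 (SE). uc.432+ measured 1.01, 2.30 and 4.60 in sham arteries, against 1.43, 6.09 and 6.29 in injured ones, a difference of 1.97 ± 1.58 (SE). uc.102+ measured -1.14, 0.38 and 3.13 in sham arteries, against -0.87, 4.43 and 4.19 in injured ones, a difference of 1.79 ± 1.76 (SE). Within the sham group alone these 3 probes thus differed by more than the mean difference between the groups.

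The most variable of all the elements detected on every array was uc.48+, which has been studied as a transcript of nerve ganglia in diabetic rats. It measured -2.35, -0.28 and 3.06 in sham arteries, against -1.98, 5.61 and 4.99 in injured ones, with an SD of 3.51 over the 6 arrays. uc.212+ measured -3.30, -2.92 and -1.01 in sham arteries, against -3.01, 2.61 and 2.09 in injured ones. uc.324+ measured -1.91, -0.66 and -0.05 in sham arteries, against -1.53, 3.20 and 3.98 in injured ones. On uc.48+, uc.212+ and uc.324+, as on uc.473+ and uc.102+, sham 1 was the lowest array and injured 1 the next to lowest, while the SD over spots was at most 0.33. Their differences were 2.73 ± 2.36, 2.97 ± 1.60 and 2.76 ± 1.5 (SE), and 6.61, 5.46 and 4.88 without both sham 3 and injured 1.

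**Figure D4:**
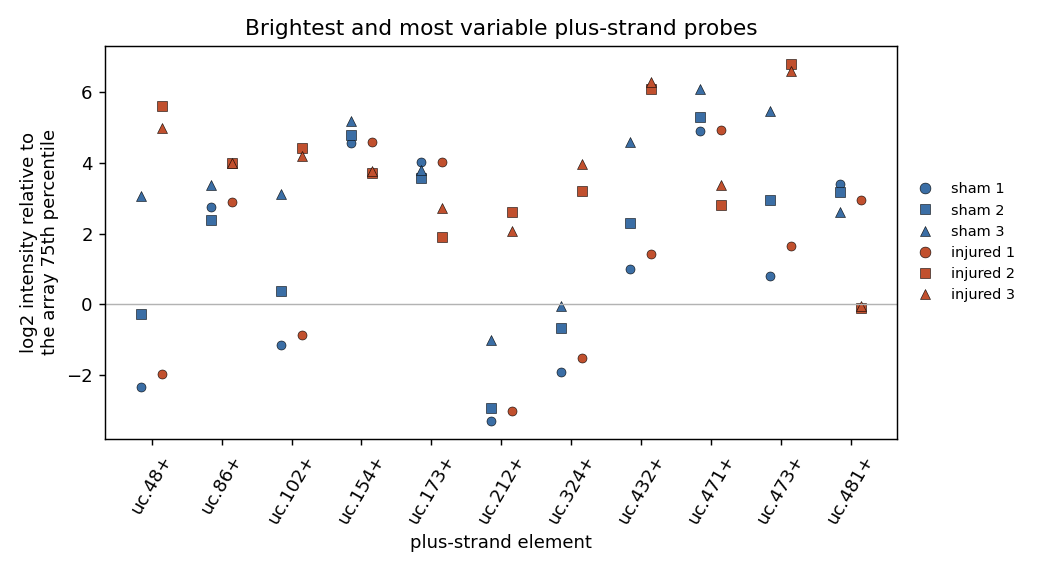
Points are log2 intensities relative to the array's 75th percentile (y axis) on each array for the 8 brightest tested plus-strand probes and the 5 most variable of those detected on all 6 arrays (11 elements in all, x axis, in number order); blue is sham, orange injured, and marker shape gives the replicate. For each element injured 2 and injured 3 lie within 1 log2 unit of each other, and injured 1 lies within 1 log2 unit of sham 1. Probes are not compared with each other.

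The 5 most even elements had ranges over the 6 arrays of 0.83 (uc.456+) to 1.34 (uc.238+) log2 units. Of the 72 detected on all 6, uc.456+ had the lowest SD over the 6 arrays, 0.35, at 1.03, 0.97 and 0.29 in sham arteries, against 0.20, 0.53 and 0.73 in injured ones. The element from which a transcript induced by low oxygen has been described in tumour cells measured -0.91, -0.86 and -0.12 in sham arteries, against -1.21, -0.88 and -0.70 in injured ones. uc.136+ measured -1.88, -2.24 and -2.42 in sham arteries, against -1.68, -1.54 and -1.63 in injured ones. Their differences were -0.28 ± 0.47, -0.30 ± 0.47 and 0.56 ± 0.43 (SE), with 95% intervals of -1.41 to 0.86, -1.45 to 0.85 and -0.48 to 1.61. uc.238+ and uc.409+ complete the 5 most even of these 72.

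The differences of the plus and the minus strand of an element were little related. Both strands were tested for 53 elements, which is 34.9% of the tested plus-strand elements, close to the 33.1% of all minus-strand elements that were tested. Across these 53, they correlated at r = 0.06 (rho = 0.08), a description over elements that share the same 6 arrays. Both were positive for 32 and both negative for 6. The plus strand was negative with a positive minus strand for 11, and the reverse held for 4.

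Of the 5 elements whose strands differed most, uc.226 stood first: its minus-strand probe measured -5.76, -3.92 and -0.63 in sham arteries, against -4.83, 0.03 and -0.02 in injured ones, a difference of 1.83 ± 1.81 (SE) against -2.27 on the plus strand. Sham 1 and injured 1 did not detect uc.226-, so that difference, and with it the first place, rests in part on values below detection. The minus-strand probe thus followed the common order of the arrays, with sham 3 beside injured 2 and injured 3, while the plus-strand probe separated the labelled groups. uc.75+ measured -2.46, -1.63 and 0.36 in sham arteries, against -2.59, 2.53 and 2.11 in injured ones, where uc.75- measured 3.93, 3.55 and 3.29 and then 3.15, 1.25 and 0.97. On injured 2 and injured 3 the plus strand was thus high and the minus strand low. uc.46+ measured -1.97, -1.98 and -0.88 in sham arteries, against -1.60, 0.13 and -0.05 in injured ones. The minus strand, uc.46-, measured 4.22, 4.42 and 3.96 and then 4.60, 1.97 and 1.67. uc.212 also had opposite signs (2.97 and -0.99, with uc.212- not detected on sham 3 and injured 3), and for uc.2 both were positive, at 3.90 and 0.82. uc.2+ itself measured -6.53, -4.22 and -1.25 in sham arteries, against -6.24, 3.29 and 2.65 in injured ones, with sham 1 and injured 1 not detecting it. None of these differences between strands was tested.

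**Figure D5:**
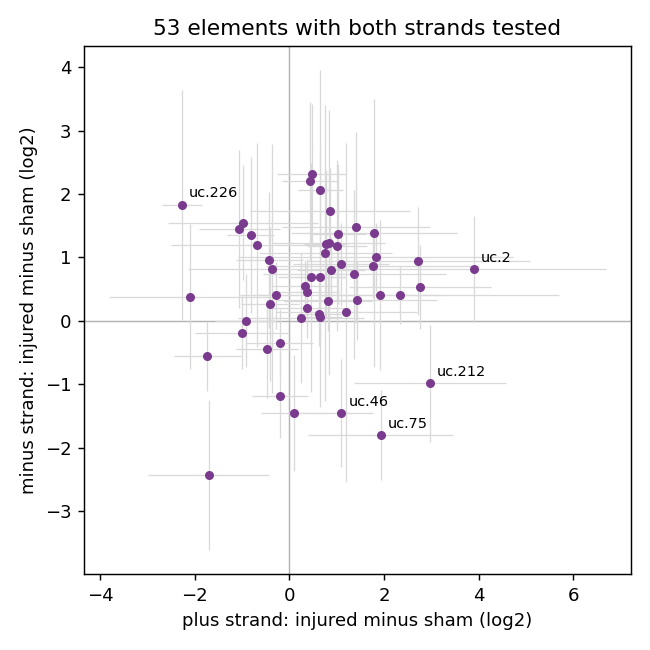
Each point is 1 of the 53 elements with both strands tested; axes are the injured minus sham difference (log2) of the plus strand (x) and the minus strand (y), and grey bars are SEs. The points show no shared trend (r = 0.06), and the 5 elements with the largest gap between strands are labelled.

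A list of 16 elements with published work, whatever the strand studied, was also followed. On the plus strand 8 of them were detected on no array, among them uc.8+ and uc.63+, which have been studied in tumours. 5 were detected on some arrays and 3 on all 6: uc.48+, and the elements studied in the gut and under low oxygen. Of the 7 tested, 4 had positive and 3 negative differences, with a median of 0.59, and 0 passed in limma. An element whose transcript is known from liver cancer measured -3.45, -3.98 and -3.55 in sham arteries, against -2.52, -2.98 and -3.18 in injured ones, a difference of 0.77 ± 0.46 (SE), and 0.08 with normexp background correction. Sham 3 did not detect it. Another 2 of these elements have been studied in work on the heart. The first, known from cardiac hypertrophy, was detected on sham 3, injured 2 and injured 3 only, at -2.76, -2.89 and -3.10, and had a difference of 0.59 ± 1.22 (SE). The other measured -4.61, -0.42 and 1.65 in sham arteries, against -5.13, -2.23 and -2.31 in injured ones, a difference of -2.10 ± 1.71 (SE), with sham 1 and injured 1 not detecting it. An element studied in lung cancer measured -4.22, -4.24 and -3.47 in sham arteries, against -4.35, -1.83 and -1.87 in injured ones, a difference of 1.29 ± 0.81 (SE). Only 1 sham array, injured 2 and injured 3 detected it, so this difference rests in part on values below detection. Its lowest value under the alternatives was 0.31. uc.73+ was detected on injured 2 and injured 3 only, at -3.43 and -3.44.

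The elements detected on some arrays only, named here after the combinations were seen, included large swings. uc.263+ measured -5.59, 0.68 and 3.36 in sham arteries, against -4.63, 5.30 and 4.77 in injured ones, and uc.282+ measured -5.62, -0.91 and 1.83 and then -5.47, 3.09 and 3.14. Both were below detection on sham 1 and injured 1. Among the 54 detected on injured 2 and injured 3 only, uc.423+ measured 0.24 and -0.24 there, against -6.48, -5.68 and -3.92 in sham and -6.05 on injured 1. In the opposite direction, uc.376+ measured -2.17, -2.34 and -5.23 in sham arteries, against -2.55, -4.75 and -5.36 in injured ones.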

How the data were processed

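Spot intensities were deposited as Agilent Feature Extraction 11.0.1.1 wrote them, as the file headers and the submitters' notes say: 1 colour (Cy3), background-subtracted, not scaled between arrays. Its background and outlier flags were deposited beside them. A deposited table of log2 values, normalized by the authors in a way not given in the sources used here, holds 480 of the 481 elements and served as an alternative. Its columns have medians of 4.79, and each correlated at 0.988 to 0.999 with its own array.

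Usable spots (no outlier flag) were averaged as log2 and scaled to the 75th percentile. Of the 481 elements 4 had no usable spot on some array, 1 of them tested, and limma fitted that one without that array. The groups were compared by lmFit and eBayes (limma 3.58.1, R 4.3.3) over all 24680 tested probes, with no covariates. The script was tested on simulated data, as a check of the code only. The spread set for passing that check was smaller than the spread between these arrays. With 3 arrays a group, the smallest p that exact permutation allows is 0.1. The number of arrays limits the precision.

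Elements named were the 10 with the lowest p, the 8 brightest, the 5 most and 5 least variable of those detected on all 6 arrays, the 5 with the largest gap between strands, the literature list and any detected on all arrays of 1 group and none of the other (there were 0). The members, lists and alternatives were chosen with earlier results of these data known.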

Additional observations from a re-analysis of the deposited data

How the results depend on the processing

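The count of elements called stayed 0 under the other backgrounds, scalings, filters, thresholds, slide block, eBayes setting and authors' values, and with each array left out in turn (0 to 0), but array weights gave 131, and leaving out both sham 3 and injured 1 gave 122. The replicate block also gave 0 called elements. Deviations of same-numbered arrays from their group correlated at r = 0.828, -0.573 and 0.822, and those of sham 3 and injured 2 at 0.843. These values do not settle whether the numbers pair the arrays, which was not tested. The count of positive differences was 351 with no filter, 192 for detection on at least 1 array (57.9% of such probes positive) and 52 for detection on all 6, because other numbers of elements enter, and 96 to 124 with 1 array left out. The count of separated elements was 3 with normexp, 25 with no scaling, 20 of 477 with no filter (10.1% of all probes) and 7 of 72 for detection on all 6 (12.5%), 12 to 102 with 1 array left out, and 137 without both sham 3 and injured 1. Over 35 elements and 630 comparisons with an alternative, 565 kept direction and side of the threshold, 58 passed it (31 with array weights, 27 without both arrays) and 7 turned sign. Of the literature list, the second heart element turned to 0.25 without both arrays and 1.39 with the slide block, the first heart element to -0.063 with normexp (-0.15 to 1.62 with 1 array left out), and the low-oxygen element to 0.10 without both arrays and 0.068 with array weights. uc.456+ was 0.0076 with no scaling. The cause was not tested for these. With normexp and its offset of 50 units, 21 of the 35 differences were smaller by over 1.5 times or turned sign, among them uc.226+ (-0.94) and uc.256+ (0.25). The part of the offset was not tested.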
